A study of Arabidopsis thaliana with 18 samples.

Results

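The genes described here encode acidic proteins of the ribosomal stalk, named RPP0A to RPP0C, RPP1A to RPP1C, RPP2A to RPP2C and RPP3A. They were taken by locus, each locus has 1 probe set on the Affymetrix ATH1 array, and they make up 10 of the 22746 probe sets. The arrays held RNA from the aerial parts of Arabidopsis thaliana seedlings, in wild type and in the rpl24b allele stv1-1, for which the labels give the Ws ecotype. Every seedling had grown for 10 to 12 days on agar with 1% sucrose at 22 °C under 16 h of light and 8 h of dark, and harvest was at 6 h of light. Each genotype had 3 plant samples, grown at different times, from which total RNA (TC), polysomal RNA (PL) and the nonpolysomal RNA together with that of monosomes (NP) were taken, which gives 18 arrays in 6 groups of 3.

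Besides RPL24B, the mutant lacks several neighbouring genes and carries a transgene for the MYB protein CAPRICE at that locus. The labels do not name the wild type's ecotype, and the study's methods put wild-type plants in Columbia. If that holds for these arrays, the effects of strain and of genotype cannot be told apart. In the mutant RPL24B itself was at 3.44 to 3.79 on the log2 scale in total RNA, against 9.98 to 10.27 in wild type. The median log2 signal of an array was 5.34 to 5.41 in TC and 4.90 to 5.07 in PL and NP, but 4.65 in 1 NP array, wild-type replicate 2. Arrays are few, and their number limits the precision. Of the tissue markers, the leaf gene RCA (Rubisco activase) had mean TC signals of 13.92 and 13.94 (wild type and mutant), and the root hair gene EXPA7 had 3.89 and 3.91. The other root marker measured, PYK10, had 10.48 and 10.40. In total RNA the log2 of the summed signal of the root markers (2 of 5 genes measured, 1 of them under the TC median) ranged from 10.41 to 10.60 in wild type and from 10.22 to 10.69 in rpl24b, and that of the leaf markers (1 of 5 measured) from 13.92 to 13.94 and from 13.90 to 13.99. None of the 4 genes chosen to mark dividing cells had a named probe set, so the part of dividing cells in the results was not tested.

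The stalk is a flexible arm on the large ribosomal subunit. Its core is P0, which sits on the ribosomal RNA beside RPL12 and carries dimers of the small proteins P1 and P2, while plants have P3 as a further type. The acidic tails of these proteins contact the elongation factors and stimulate their GTP hydrolysis, so that the stalk works in every elongation cycle. Each type comes from a small gene family, and the members of a family are paralogs. Translation state (TL) was taken within a plant sample as log2 PL minus log2 NP: a higher TL means that more of the signal lay in polysomes. The zero of TL is set by the scaling of the arrays and is no equal division of molecules.

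In the mutant, most stalk mRNAs were more abundant in total RNA. In translation state 2 passed the test, of which RPP0A had mutant signals not shown above background and RPP0C depended on every plant sample. In total RNA 7 of the 10 rose and 1 fell at an adjusted p under 0.05 (limma, Benjamini-Hochberg over all probe sets), where 8.40% of all probe sets rose and 7.91% fell. Without wild-type replicate 2, 4 of the 10 passed instead of 8, as RPP0B, RPP1B, RPP1C and RPP3A no longer did. In polysomal RNA 6 of the 10 rose and 1 fell, beside 10.8% and 7.87% of all probe sets. In nonpolysomal RNA 3 of the 10 rose and 1 fell, beside 5.21% and 3.39%. Of the other 200 probe sets of cytosolic ribosomal proteins, 113 rose in total RNA and 156 in polysomal RNA. TL rose for 2 and fell for 0 of the 10 in limma, where 0.448% of all probe sets rose and 0.448% fell, and at an unadjusted p under 0.05 4 of the 10 were higher and 0 lower, beside 5.08% and 7.40% of all probe sets. The 2 were the P0 genes RPP0A, whose mutant signals were near those of the deleted RPL24B, and RPP0C, which lay close to the threshold. In abundance RPP2C and RPP0A stood apart, as RPP2C rose 12.8-fold in total RNA and RPP0A fell to near the level of the deleted RPL24B.

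**Figure D1:**
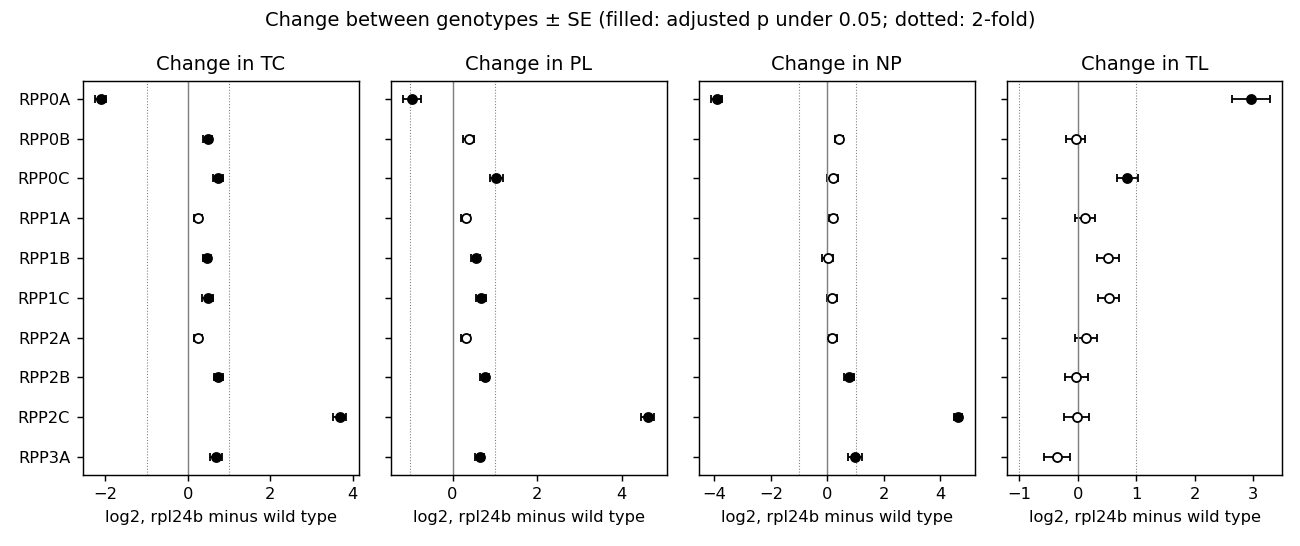
Change between genotypes (rpl24b minus wild type, log2, x axis; the scale differs between panels) of each stalk gene in TC, PL, NP and TL, with bars for the SE of the limma fit. Filled points passed an adjusted p of 0.05, dotted lines mark 2-fold, and RPP0A and RPP2C stand apart at -2.11 and 3.68 in TC.

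RPP0A (AT2G40010, chromosome 2) encodes a form of P0, the core of the stalk. In wild type its signal was much higher outside the polysomes than in them, and in the mutant the nonpolysomal signal was far lower. The NP signal was 7.83, 7.78 and 8.05 in wild-type replicates 1 to 3. In rpl24b it was 3.98, 4.35 and 3.58. The groups lay far apart, and the change was -3.92 ± 0.20 (SE, n = 3 each, adjusted p = 2.14e-06). The probe set of RPL24B, the gene that the mutant lacks, read 3.41 to 4.50 in the same NP arrays. RPP0A was thus not shown above background in the mutant, and the size of its fall may be a lower bound.

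The polysomal signal of RPP0A moved much less. It was 5.07, 4.77 and 4.53 in wild type, and 4.19, 3.35 and 3.98 in rpl24b. No mutant value reached the lowest wild-type value, and the change of -0.95 ± 0.21 (SE) passed the test (adjusted p = 0.0108). In total RNA the signal was 5.98, 5.78 and 5.69 in wild type and 3.60, 3.59 and 3.92 in rpl24b, again without overlap, and fell by 2.11 ± 0.13 (SE, adjusted p = 2.13e-05). The deleted RPL24B read 3.44 to 3.79 in the TC arrays and 3.30 to 3.58 in the PL arrays of the mutant. In TC the RPP0A values of 3.60 and 3.59 lay within that range and 3.92 above it. In PL 3.35 lay within the range of RPL24B, and 4.19 and 3.98 above it. Detection calls were not used here, so RPP0A was not shown above background in these arrays either, and the limit is kept.

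The TL of RPP0A was therefore -2.76, -3.01 and -3.53 in wild type, and only 0.0264% of all probe sets had a lower mean there. The wild-type PL mean, 4.79, was itself under the PL median of 4.93, so this TL and its rank rest on a dim PL signal. In rpl24b the TL of RPP0A was 0.20, -1.0 and 0.40. The mutant values were all above the wild-type ones but scattered more, with an SD of 0.76 against 0.39. The change of 2.96 ± 0.32 (SE, 95% interval 2.26 to 3.67) passed the test (adjusted p = 0.00101). The mutant means, 3.84 in PL and 3.97 in NP, were under the array medians of 4.93 and 4.96 and close to those of the deleted RPL24B, 3.42 and 3.89, and detection calls were not used here. The mutant TL is thus a ratio of signals not shown above background, and the change gives no measure of how far ribosome loading of RPP0A differed.

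RPP0B (AT3G09200, chromosome 3), the second P0 gene, kept a low translation state in both genotypes. TL was -1.47, -1.48 and -1.38 in wild type, and -1.57, -1.51 and -1.34 in rpl24b. The values of both genotypes overlapped, and the change was -0.03 with a 95% interval of -0.39 to 0.32 (adjusted p = 0.955). Both means differed from 0 (limma, adjusted p = 1.95e-06 in wild type and 1.32e-06 in rpl24b), but the place of 0 depends on array scaling. Of all probe sets, 1.43% had a lower TL in wild type and 1.58% in rpl24b. In total RNA the signal went from 11.62, 11.46 and 11.62 to 12.01, 11.94 and 12.20, which do not overlap, and rose by 0.48 ± 0.11 (SE, adjusted p = 0.0166). Without wild-type replicate 2 it did not pass (adjusted p = 0.0695).

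RPP0C (AT3G11250, chromosome 3) was the P0 gene whose mRNA gained signal in the polysomes and not detectably outside them. The PL signal was 6.12, 6.26 and 6.20 in wild type and 7.07, 7.03 and 7.60 in rpl24b. These groups do not overlap, and PL rose by 1.04 ± 0.15 (SE, adjusted p = 0.00125). NP was 5.60, 6.15 and 5.81 in wild type and 6.03, 5.75 and 6.33 in rpl24b. Here the ranges overlapped, and the change was 0.19 (95% interval -0.25 to 0.63, adjusted p = 0.644). In total RNA RPP0C rose by 0.73 ± 0.13 (SE, adjusted p = 0.00677).

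TL of RPP0C was 0.52, 0.12 and 0.39 in wild type and 1.04, 1.28 and 1.26 in rpl24b. Every mutant value was above every wild-type value. The change of 0.85 ± 0.18 (SE, 95% interval 0.47 to 1.24) had an adjusted p of 0.0483. It did not pass when any 1 of the 6 plant samples was left out (adjusted p between 0.0820 and 0.186), and with the replicate number as a block it was 0.0856.

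**Figure D2:**
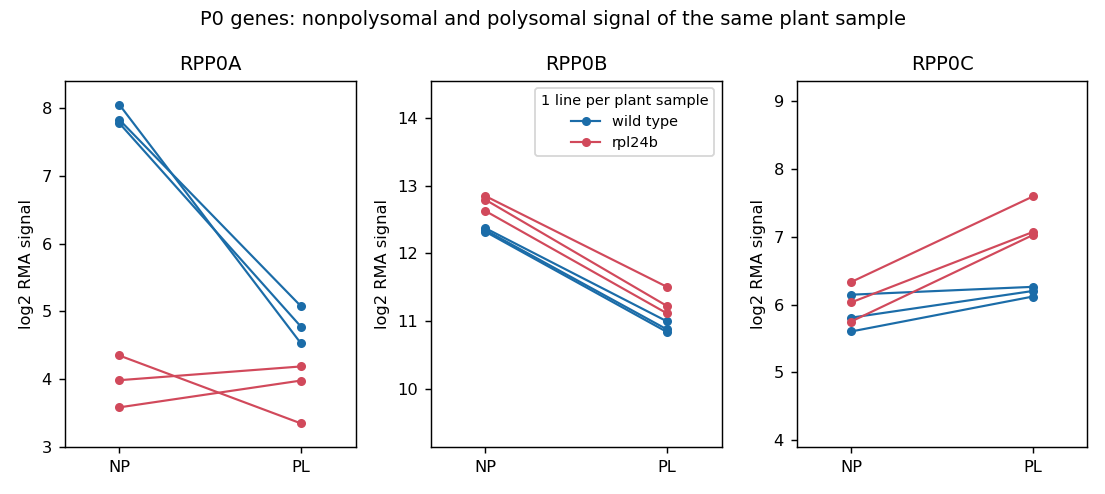
Log2 signal (y axis) of the 3 P0 genes in the NP and PL arrays (x axis), with 1 line per plant sample, blue for wild type and red for rpl24b; the panels span the same number of log2 units at different levels. The PL signal of RPP0A is below NP in each wild-type sample (TL of -3.53 to -2.76), and NP is 3.58 to 4.35 in the mutant, RPP0B keeps the same slope in both genotypes, and RPP0C rises more steeply in the mutant.

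The P0 paralogs were also set against each other within a plant sample. In TL the difference RPP0B minus RPP0C went from -1.78 in wild type to -2.67 in rpl24b. The 3 values of the genotypes do not overlap, but an exact permutation test of 3 against 3 (two-sided) cannot give a p below 0.1. That value was reached here and became 0.18 after adjustment over the 18 values computed from 9 pairs of paralogs.

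RPP1A (AT1G01100), RPP1B (AT4G00810) and RPP1C (AT5G47700) encode P1, which pairs with P2 on the stalk. In total RNA 2 of the 3 rose, and in polysomal RNA the same 2 rose, beside 8.40% and 10.8% of all probe sets. RPP1B had a TC signal of 8.34, 8.43 and 8.47 in wild type and of 8.79, 8.82 and 8.99 in rpl24b. RPP1C had 9.75, 9.86 and 9.91, and 10.36, 10.06 and 10.56. Neither gene overlapped between genotypes, and the changes were 0.46 ± 0.10 (SE, adjusted p = 0.0148) for RPP1B and 0.49 ± 0.13 (SE, adjusted p = 0.0387) for RPP1C. RPP1C did not pass when any 1 of the wild-type replicates, or rpl24b replicate 1 or 3, was left out (adjusted p up to 0.114), nor did RPP1B without wild-type replicate 1 or 2 (up to 0.0515).

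In the polysomes RPP1B rose by 0.54 ± 0.12 (SE, adjusted p = 0.00937) and RPP1C by 0.68 ± 0.12 (SE, adjusted p = 0.00335). Outside the polysomes their changes were 0.02 and 0.15, with intervals that include 0 (-0.41 to 0.45 and -0.25 to 0.55). RPP1A moved less, from 10.83, 10.72 and 10.71 to 11.04, 10.88 and 11.10 in TC, a change of 0.25 that did not pass (adjusted p = 0.125) although the groups do not overlap.

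None of the P1 genes passed the test in TL. RPP1B had a TL of -0.32, -0.25 and -0.35 in wild type and 0.27, 0.47 and -0.10 in rpl24b. RPP1C had -0.66, -0.56 and -0.26 in wild type and -0.11, 0.27 and -0.04 in rpl24b. Each mutant value lay above each wild-type value, with changes of 0.52 (95% interval 0.12 to 0.93, adjusted p = 0.261) and 0.53 (0.13 to 0.93, adjusted p = 0.249). For RPP1A the change was 0.12 (-0.25 to 0.49, adjusted p = 0.823) and the groups overlapped. In TL 4 of the 10 stalk genes did not overlap between genotypes, all higher in rpl24b, beside 18.1% of all probe sets in either direction.

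P2 is the partner of P1, and its genes RPP2A (AT2G27720), RPP2B (AT2G27710) and RPP2C (AT3G28500) differed in abundance between genotypes to very unequal degrees. RPP2C gave a TC signal of 4.94, 5.38 and 5.59 in wild type, and of 9.03, 8.93 and 9.0 in rpl24b. The mutant arrays lay close together, while the mean in wild type, 5.30, was under the TC median of 5.38. RPP2C rose by 3.68 ± 0.15 (SE, adjusted p = 2.43e-06), the 24th largest change of all probe sets in either direction.

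In polysomal RNA RPP2C had 4.76, 5.09 and 5.10 in wild type, and 9.43, 9.90 and 9.44 in rpl24b. In nonpolysomal RNA it had 4.47, 4.18 and 4.42, and 8.91, 8.99 and 9.03. Both fractions thus rose together, by 4.61 ± 0.15 (SE, 24.4-fold, adjusted p = 6.34e-08) and by 4.62 ± 0.15 (SE, 24.7-fold, adjusted p = 1.32e-07). TL was 0.29, 0.91 and 0.68 in wild type and 0.52, 0.91 and 0.41 in rpl24b. The ranges overlapped, and the interval of the change was -0.47 to 0.44 (adjusted p = 0.983). The mean NP signal of RPP2C in wild type, 4.35, was under the NP median of 4.96. Its PL mean there, 4.98, was close to the PL median of 4.93. The wild-type TL, its change and the fold values thus rest on dim wild-type signals, and detection calls were not used here. The 5 neighbours of RPP2C on chromosome 3 that were measured changed by -0.28 to 0.25 in total RNA, and 0 of them passed the test.

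RPP2A and RPP2B lie next to each other on chromosome 2. RPP2B had a TC signal of 10.00, 9.86 and 10.03 in wild type and of 10.70, 10.53 and 10.88 in rpl24b, a rise of 0.74 ± 0.11 (SE, adjusted p = 0.00358) with no overlap. Its neighbour RPP2A had 10.06, 9.82 and 9.92 against 10.18, 10.08 and 10.28, also without overlap, and the change of 0.25 ± 0.10 (SE) did not pass (adjusted p = 0.156). The difference between both genes went from -0.03 in wild type to -0.52 in rpl24b, with no overlap (exact permutation p = 0.1, two-sided, the smallest possible; adjusted p = 0.18).

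RPP2B also rose in PL by 0.76 (adjusted p = 0.000946) and in NP by 0.78 (adjusted p = 0.0259), though in NP it did not pass without wild-type replicate 3 or without rpl24b replicate 1 or 3 (adjusted p up to 0.0884). Its TL was 0.85, 1.18 and 1.12 in wild type and 0.99, 1.3 and 0.79 in rpl24b. The groups overlapped, with a change of -0.02 (95% interval -0.43 to 0.39). RPP2A had a TL near 0 in both, from -0.40 to 0.06 in wild type and from -0.14 to 0.14 in rpl24b, and the interval of its change was -0.26 to 0.55.

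RPP3A (AT4G25890, chromosome 4) encodes the plant type P3 and had the highest TL of the 10 in wild type. TL was 1.05, 1.71 and 1.63 there, and 1.36, 1.21 and 0.78 in rpl24b. The ranges overlapped, and the change was -0.35 (95% interval -0.83 to 0.14, adjusted p = 0.573). TC went from 7.13, 6.64 and 6.82 to 7.40, 7.46 and 7.79, with no overlap, and RPP3A rose by 0.68 ± 0.15 (SE, adjusted p = 0.0177). It rose as well in PL, by 0.64 (adjusted p = 0.00258), and in NP, by 0.98 (adjusted p = 0.0334). In TC it did not pass without wild-type replicate 2 or 3 (adjusted p up to 0.0672), and in NP without either of these or without rpl24b replicate 2 or 3 (up to 0.124).

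**Figure D3:**
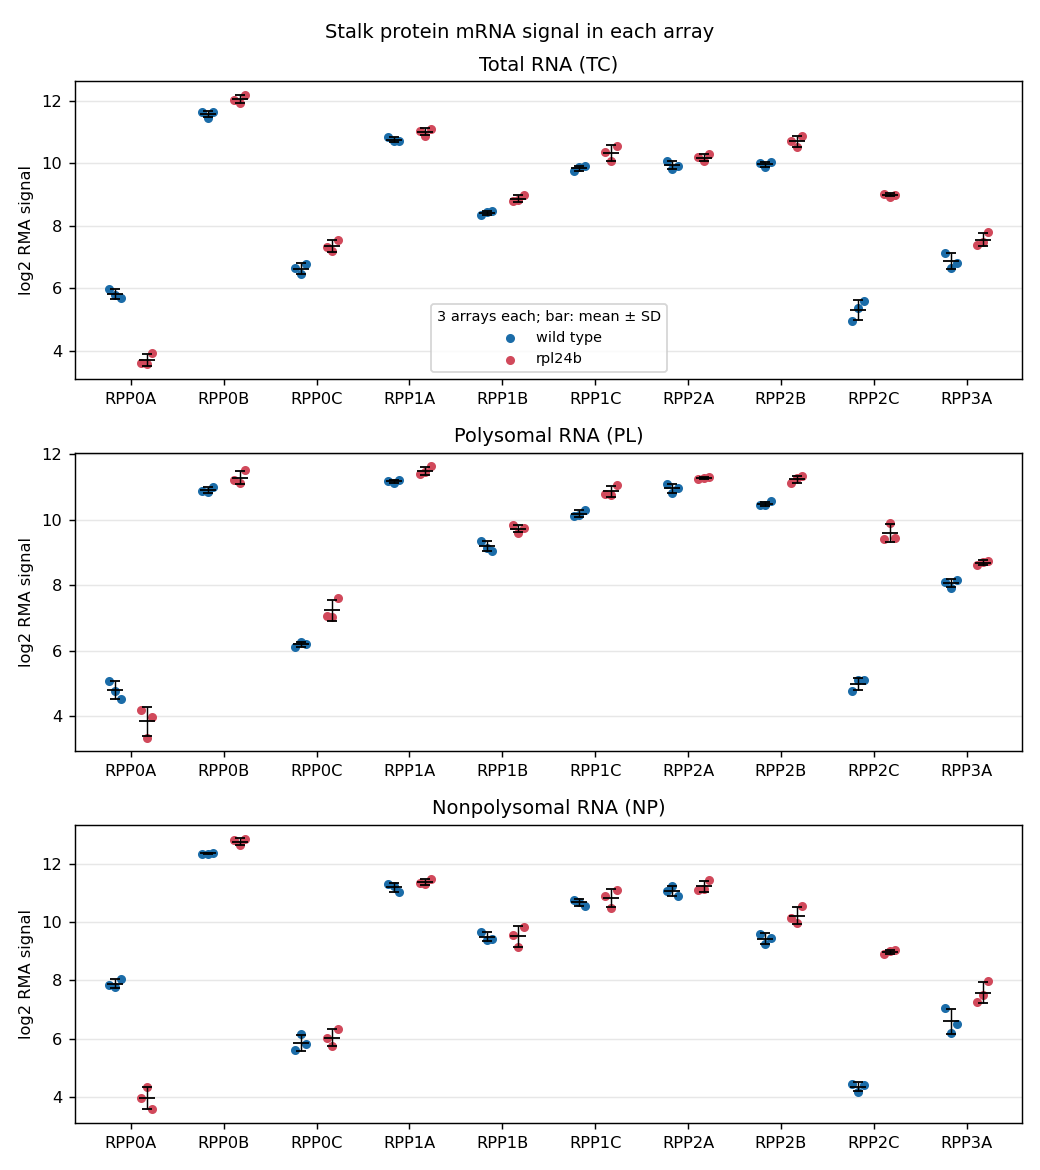
Log2 signal (y axis) of each stalk gene (x axis) in the TC, PL and NP arrays, with 3 arrays per genotype, blue for wild type and red for rpl24b; black bars give the mean and SD. In TC and in PL the genotypes do not overlap for any of the 10 genes, and RPP0A is the one that is lower in rpl24b.

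In total RNA the genotypes did not overlap for any of the 10 genes, and 9 were higher in rpl24b, beside 34.2% of all probe sets without overlap. The same 10 of 10 held in polysomal RNA (34.4% of all probe sets). In nonpolysomal RNA 5 of 10 did not overlap (27.7%). The median change over the stalk genes was 0.48 in TC, 0.59 in PL and 0.19 in NP. The other 200 probe sets of cytosolic ribosomal proteins had medians of 0.43, 0.54 and 0.27, and all probe sets 0.03, 0.00 and 0.08. In TL the median change was 0.13 for the stalk genes, 0.225 for the other 200 and -0.065 for all probe sets. Of the other 200, 16 rose and 3 fell in TL at an adjusted p under 0.05 (limma). In TC 113 rose and 3 fell, and in PL 156 and 3. A rise in TL, TC or PL was thus not particular to the stalk. In these tissue samples fewer cells of a type and less RNA per cell cannot be told apart.

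The order of the stalk genes by TL ran in wild type from RPP0A at -3.10 ± 0.39 (SD, n = 3) over RPP0B, RPP1C, RPP1B, RPP2A, RPP1A, RPP0C, RPP2C and RPP2B to RPP3A at 1.46 ± 0.36 (SD, n = 3). Only RPP0A and RPP0B, and RPP0B and RPP1C, were neighbours in this order whose ranges did not overlap. In rpl24b the order began with RPP0B at -1.48 ± 0.12 (SD, n = 3) and RPP0A at -0.13 ± 0.76 (SD, n = 3, from signals not shown above background), and ended with RPP0C at 1.19 ± 0.13 (SD, n = 3). There the ranges overlapped between all neighbours except RPP0B and RPP0A. Against a TL of 0, 3 genes were above and 3 below in wild type, where 19.1% of all probe sets were above and 15.2% below. In rpl24b 4 were above and 1 below, beside 18.8% and 18.3%.

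**Figure D4:**
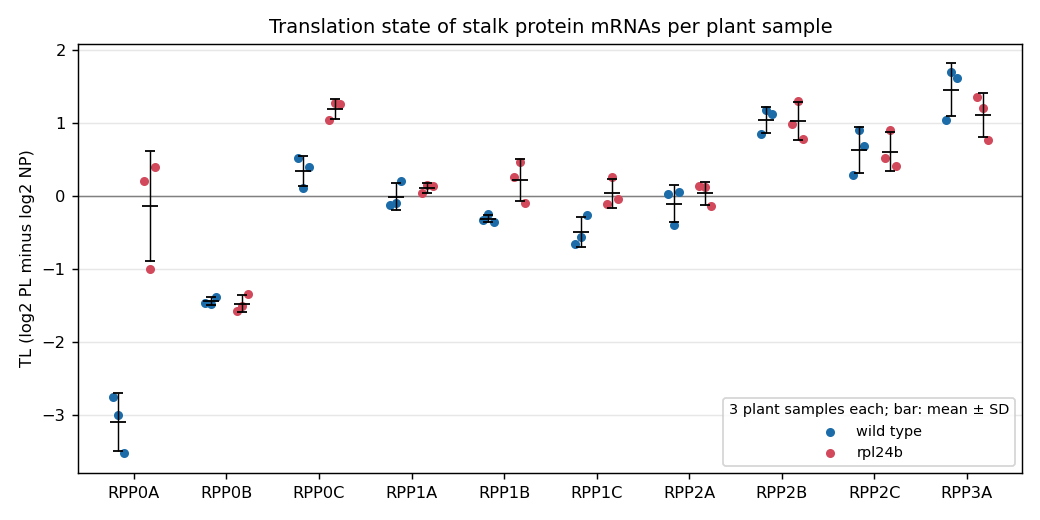
Translation state (log2 PL minus log2 NP, y axis) of each stalk gene (x axis) in the 3 plant samples per genotype, blue for wild type and red for rpl24b, with the mean and SD as black bars. RPP0A lies at -3.53 to -2.76 in wild type and at -1.0 to 0.40 in rpl24b, where its signals were not shown above background, RPP0B stays between -1.57 and -1.34 in both, and RPP0C is higher in all 3 mutant samples.

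The other P-protein genes, those of the stalk base and the elongation factors measured gave no gene that passed in TL. Of the 6 other P-protein genes in the study's catalogue of ribosomal proteins (RPP0D, RPP1D, RPP1E, RPP2D, RPP2E and RPP3B), 0 passed in TL, 2 rose in TC and 3 rose in PL. The 3 that rose in PL were RPP0D, RPP2D and RPP3B. RPP1D, RPP1E and RPP2E had mean signals under the array medians in TC, PL and NP in both genotypes. Dim signal thus limits what their results can show. RPP0D, a P0-like gene, rose by 0.74 in TC (adjusted p = 0.00930), and RPP3B by 0.68 (adjusted p = 0.00718). The mean TL of RPP3B was 1.11 in wild type and 1.18 in rpl24b, beside 1.46 and 1.11 for RPP3A, also of type P3. At an unadjusted p under 0.05, RPP0D was the one of these 6 that differed in TL, by 0.73 (adjusted p = 0.162).

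RPL12A, RPL12B and RPL12C encode the protein at the base of the stalk. All 3 rose in PL, by 0.60, 0.44 and 0.68, and 2 of the 3 rose in TC. In NP RPL12B rose by 1.06 ± 0.18 (SE, adjusted p = 0.00585). In TL 0 of 3 passed, with changes of 0.67, -0.62 and 0.21 (adjusted p = 0.189, 0.171 and 0.645).

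Elongation factors, whose binding the stalk serves, were measured by 4 probe sets that cover 8 of the 12 loci listed. These were for eEF1A, eEF1B-alpha and eEF1B-gamma, and none was for eEF2. In TL 0 of these 4 passed, with changes of 0.07 to 0.94, in TC 1 rose, and in PL 2 rose. An eEF1B-alpha gene, AT5G19510, which encodes a nucleotide exchange factor of eEF1A, rose by 0.39 in TC (adjusted p = 0.0358) and by 0.73 in PL (adjusted p = 0.00315). The probe set of eEF1A, which detects several genes of that factor, rose by 0.51 in PL (adjusted p = 0.0320).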

How the data were processed

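The authors hybridised 18 ATH1 arrays and deposited RMA signals on the log2 scale, obtained with the affy package in R/Bioconductor, and translation states as log2 PL minus log2 NP (versions not given in the sources used here). All 22746 probe sets were used, and computed translation states differed from the deposited ones by at most 0.001. TC arrays have another median than PL and NP arrays, so TC was compared within itself only. Samples were grouped by the labels' genotype and fraction.

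Each comparison was 3 against 3 in limma 3.58.1 (lmFit, eBayes; R 4.3.3) with Benjamini-Hochberg adjustment over all probe sets. A change passed at an adjusted p under 0.05 and counts over all probe sets also asked for at least 2-fold where said. The procedure was tested on simulated data. The stalk genes and the lists beside them (other P-protein genes, RPL12, elongation factors, tissue markers) were chosen with earlier results of these data known. All 10 members were named, of the other lists the extreme genes, and for RPP0A and RPP2C the 3 named probe sets with the most similar signals. RPL12 genes and markers given with values beyond that were chosen after their values were seen. Symbols came from the study's catalogue and the platform's annotation, and neighbours from the TAIR10.1 annotation.

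Per the labels each replicate of both genotypes grew side by side at a time of its own, hence equal numbers mark a shared growth time and pair the plants. The deviations of such pairs from the mean of their group had correlations of 0.14 to 0.39 in TC, 0.05 to 0.28 in PL, -0.19 to 0.06 in NP and -0.05 to 0.03 in TL. Pairs of unlike number had -0.36 to -0.03, -0.24 to 0.12, -0.14 to 0.16 and -0.03 to 0.08. In TC each pair of equal number thus exceeded each pair of unlike number. The study's test has no term for growth time, so the replicate block was an alternative. Others were leaving out each plant sample, centring arrays on their median and quantile normalization. The rest were trend and robust settings, leaving out dim probe sets, and the deposited translation states. Sequences of these genes were not used here.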

Additional observations from a re-analysis of the deposited data

Results flagged for a closer look

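The change in translation state between genotypes was tested directly for each gene, and it passed for a pair of stalk genes. RPP0A had a TL higher by 2.96 in rpl24b (adjusted p = 0.00101), with differences of 2.96, 2.0 and 3.92 in replicates 1 to 3. It passed under each alternative run. RPP0C had a TL higher by 0.85 (adjusted p = 0.0483), with differences of 0.52, 1.16 and 0.87, but did not pass when any 1 of the 6 plant samples was left out (adjusted p from 0.0820 to 0.186) or with the replicate block (adjusted p = 0.0856). For RPP0A, the mutant signals lay near those of the deleted RPL24B in both fractions (3.84 against 3.42 in PL, 3.97 against 3.89 in NP), so the size of its increase is no measure of a translation state.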

How the results depend on the processing

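Over the 60 values of the 10 genes, the alternatives gave 648 results, of which 39 crossed the threshold of the test and 28 changed sign. The changes of RPP2C in TC, PL and NP and of RPP0A in NP and TL kept their direction and passed under each alternative run. Those of RPP0A in TC and PL did so as well, except that RPP0A was itself left out there as a dim probe set. RPP0C in TL did not pass without each plant sample in turn (adjusted p from 0.0820 to 0.186), with the replicate block (adjusted p = 0.0856), with quantile normalization (0.0681) and with trend and robust settings (0.0548). The number of stalk genes that passed in TL was then 1 in each of these, so that its range over left-out samples was 1 to 1. That number was 4 to 8 in TC, with 4 without wild-type replicate 2, and 2 to 4 in NP, with 2 without wild-type replicate 3 or without rpl24b replicate 3.

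Over all probe sets 138 changed in TL by at least 2-fold, 61 to 145 when a sample was left out and 148 with the replicate block. In TC 661 did, and 407 with dim probe sets left out. Centring each array moved the median change of all probe sets from -0.07 to 0.05 in TL and from 0.08 to -0.08 in NP. With it 117 probe sets were higher and 69 lower in TL (57 and 81 otherwise), and 303 and 441 in NP (479 and 310 otherwise). Quantile normalization gave 414 and 371 in NP.

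Values near 0 changed sign. Centring gave changes in TL of 0.0818 for RPP0B, 0.0945 for RPP2B and 0.10 for RPP2C, and in NP of -0.13 for RPP1B and -0.0005 for RPP1C. Quantile normalization gave a TL in rpl24b of -0.0395 for RPP1A, -0.0382 for RPP1B, -0.17 for RPP1C and -0.12 for RPP2A. When a sample was left out, the change in TL ranged from -0.10 to 0.0145 for RPP0B, -0.003 to 0.24 for RPP2A, -0.16 to 0.10 for RPP2B and -0.19 to 0.13 for RPP2C, and that in NP from -0.14 to 0.21 for RPP1B. TL in wild type then ranged from -0.11 to 0.053 for RPP1A and from -0.19 to 0.045 for RPP2A. TL in rpl24b ranged from -0.40 to 0.30 for RPP0A, -0.0715 to 0.12 for RPP1C and -0.0075 to 0.13 for RPP2A. The cause was not tested.

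The replicate block let RPP0B pass in PL (adjusted p = 0.0338 against 0.0582) and, but for RPP0C in TL, changed the outcome of no other test between genotypes among the 10 genes. Dim signals limit the precision of RPP0A in rpl24b, of RPP0A in wild-type PL and of RPP2C in wild type.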

Other observations

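The probe sets with the signal pattern most like that of RPP0A over the 12 PL and NP arrays, among 13436 with 1 named gene, were AT3G29120 (Pearson r = 0.978), AT1G54260 (0.977) and AT5G56380 (0.969). Their TL changed by 2.04, 2.06 and 2.74, and their TC signal by -1.43, -1.99 and -3.04. For RPP2C they were AT1G04040 (0.993), AT3G21020 (0.980) and AT1G73120 (0.976), with changes of -0.00, -0.11 and -0.25 in TL and of 1.16, 1.61 and 2.66 in TC. These are descriptions over arrays that share plant samples and genotypes, with no test.

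Near RPP0A, 2 genes within 3 loci on either side were measured. AT2G40020 changed by -0.27 in total RNA (adjusted p = 0.128) and AT2G40050 by 0.62 (adjusted p = 0.00677).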
